A study of Mus musculus with 60 samples.

Results

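The genes described here encode proteins that hepatocytes secrete into plasma, among them the acute phase proteins. They are 43 genes taken by symbol from a list drawn up for this work, out of 55290 named genes in the poly-A tables, and they fall into 6 roles: carriers of metals, haem, vitamins and hormones, serpins (serine protease inhibitors), apolipoproteins, proteins of clotting, kinin release and fibrinolysis, heavy chains of the inter-alpha-trypsin inhibitor with fetuin, and acute phase and complement proteins with the interleukin 1 antagonist. No cut-off on a measured value was used, but the list was drawn up with earlier results of these data known. Counts set against all genes are therefore not from a blind choice. The study compared Ftsj1_DF mice, deficient in the tRNA ribose methyltransferase gene Ftsj1, with wildtype (WT) mice. The animals were 6 untreated males aged 4 months, 3 of each genotype, from 2 litters of 4 and 2 brothers, all under the same batch label. The whole organs (brain, heart, kidney, liver, spleen) of each mouse gave 1 poly-A library apiece, a library of mainly messenger RNA, so that 10 groups of 3 are used here. How the allele was made and which cells carry it is not stated in the labels.

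The authors deposited 1 comparison per organ, with a mean level over the 6 libraries in normalised counts (read counts divided by a size factor for depth), a log2 fold change of Ftsj1_DF over wildtype, its standard error (SE) and p-values from DESeq2. They hold no value per mouse. A gene is said to have risen or fallen here when the authors' adjusted p was under 0.05. Mean levels summed to between 127968852 (spleen) and 337903927 (kidney) normalised counts per organ, and the largest size factor exceeded the smallest by 2.14 times in spleen to 18.0 times in kidney. Ftsj1 itself stood at 8.79% of wildtype in liver to 15.4% in brain by the authors' deposited table, a check of the labels. For transcripts of liver type at low level, 2 of the 6 heart libraries stood apart, and 1 kidney and 1 brain library to a smaller extent; the values are given with the results. In liver, enzymes that stay inside hepatocytes made up 43642 ppm of the summed level. Transcripts of other tissue were also found: markers of the exocrine pancreas made up 53920 ppm of the spleen libraries, 1990 ppm of the liver libraries and 91.2 ppm of the kidney libraries.

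Hepatocytes release most plasma proteins, and their genes are driven by liver-enriched factors of the HNF1, HNF4, FOXA and C/EBP families. In inflammation interleukin 6, through STAT3, and interleukin 1, through NF-kB and C/EBP beta, raise positive acute phase proteins such as serum amyloid A, haptoglobin, fibrinogen, haemopexin and the orosomucoids, while albumin and transthyretin fall. Several of these genes are also transcribed outside the liver: Ttr in the choroid plexus, Trf in oligodendrocytes, C3 in fibroblasts and macrophages, and Apob in intestine.

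Liver held nearly all of these transcripts. The 43 genes made up 18.9% of the summed level in liver, against 0.125% in brain, 0.120% in spleen, 0.0740% in kidney and 0.0417% in heart. Albumin (Alb) alone was 7.89% of the liver total, at 18903789 normalised counts in the authors' deposited table. Transferrin (Trf, iron transport), Apob (the core protein of very low density lipoprotein), C3 (the central complement component) and Apoa1 (the main protein of high density lipoprotein) followed with 0.960%, 0.928%, 0.753% and 0.653%. Per kilobase of transcript the order differed, with Alb at 9293898 normalised counts, Apoa2 at 2403622, Apoa1 at 1510280 and Apoc1 at 1113744. At the other end stood Il1rn, which encodes the interleukin 1 receptor antagonist (298 per kilobase), Orm3 (944), Saa3 (1336) and Orm2 (3631). Carriers held 10.5% of the liver total, apolipoproteins 2.55%, serpins 2.21%, clotting and kinin proteins 1.96%, acute phase and complement proteins 0.818% and inhibitor heavy chains with fetuin 0.815%.

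Serpina1d and Serpina3k were listed at 0 in all 5 organs in the authors' deposited table, which leaves 41 genes with a value. A 0 there does not show absence, since Myd88, a signalling adaptor found in most cell types, was listed at 0 in all 5 organs too. Trf shares 63.5% of its exon bases with the gene model Gm20425 on the same strand in the annotation GENCODE M21. Gm20425 was not listed in any of the 5 organs, and the annotation used for counting is not stated. The overlap in M21 therefore does not show that the Trf count was affected. Of all 100-base windows in the longest transcript, 49.9% in Serpina1a, 58.5% in Serpina1c, 20.6% in Serpina1b and 14.8% in Serpina1e recur in another gene, mostly another Serpina1 copy. The same share was 9.80% in Saa1, 6.95% in Orm1 and in Orm2, and 0 in Orm3 and Saa3. How reads of such windows were counted is not stated in the labels.

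**Figure D1:**
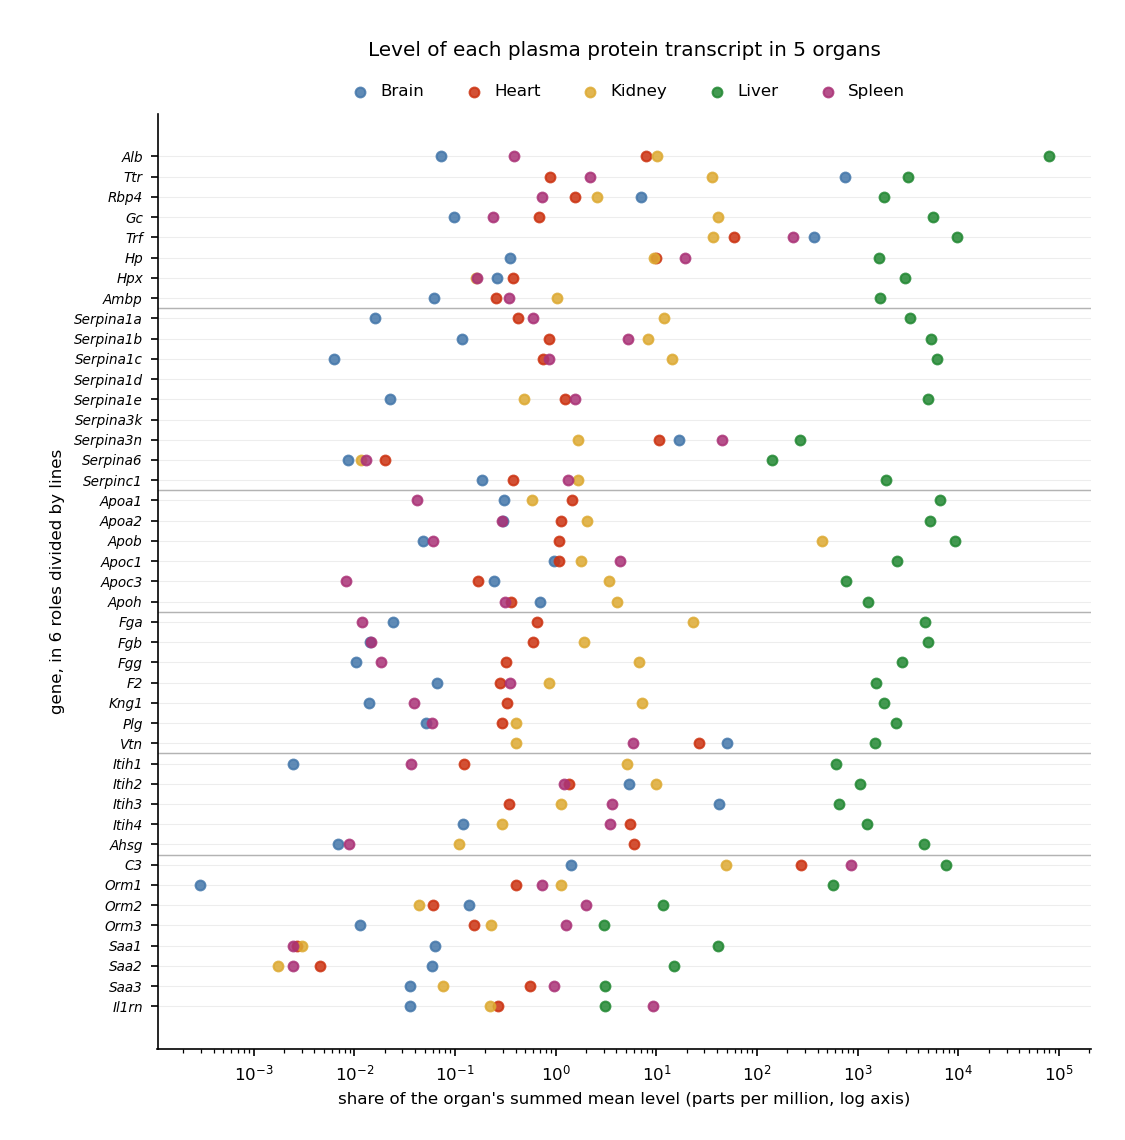
Share of each organ's summed mean level held by each of 41 plasma protein genes, in ppm on a log axis, with 1 point per organ. Liver points lie to the right for every gene but Il1rn, which is highest in spleen, and after Il1rn the shares closest to liver are those of Orm3 and Saa3 in spleen and Ttr in brain.

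Outside the liver a few genes made up most of the sum, and they differed from organ to organ. In brain, transthyretin (Ttr, carrier of thyroxine and retinol-binding protein) held 60.5% of the sum over the 43 genes, with 170284 normalised counts, and Trf (82487), vitronectin (Vtn, 11418), Itih3 (9518) and Serpina3n (3829) brought it to 98.5% by the authors' deposited table. In heart C3 held 65.6% (38672 normalised counts), followed by Trf (8267), Vtn (3729), Serpina3n (1500) and haptoglobin (Hp, 1412) in the authors' deposited table. In kidney Apob held 60.2% (150516 normalised counts), followed by C3 (16469), the vitamin D binding protein gene Gc (13907), Trf (12303) and Ttr (12068) in the authors' deposited table. In spleen C3 held 71.7% (110218 normalised counts), followed by Trf (29124), Serpina3n (5742), Hp (2465) and Il1rn (1195) in the authors' deposited table. None of these 20 levels, nor of the 5 highest in liver, belonged to a gene that rose or fell, apart from Ttr in kidney. In brain Ttr had a log2 fold change of -0.27 ± 0.66 (SE) in the authors' deposited table, and of 11 choroid plexus markers with an adjusted p 0 rose or fell.

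In the liver of deficient mice most plasma protein transcripts were within a narrow range of wildtype. Of 41 genes with an adjusted p, Il1rn rose, Orm3 fell and 39 did not pass; that is 4.88% of them, against 2.29% of all genes tested in liver. The median log2 fold change was -0.00 over the 41 genes, of which 20 lay above 0 and 21 below, with 0.0058 over all genes at a mean level of 10 or more. For 36 of the 41 genes the 95% interval stayed within 1 log2 unit of 0, and for 28 within 0.5. Alb stood at -0.01 ± 0.15, with an interval from -0.30 to 0.28, in the authors' deposited table. Trf (0.06 ± 0.13) and Apob (0.13 ± 0.15) did not pass either in the authors' deposited table.

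Il1rn, whose protein blocks the interleukin 1 receptor, had a mean of 738 normalised counts and a log2 fold change of 0.85 ± 0.23 in the authors' deposited table (DESeq2 adjusted p = 0.0121). Orm3, a minor copy of the orosomucoid (alpha-1-acid glycoprotein) genes, had a mean of 730 normalised counts and -0.80 ± 0.23 in the authors' deposited table (DESeq2 adjusted p = 0.0254). These are 180% and 57.5% of wildtype, and both genes are among the 3 lowest of the 41 in liver. The other orosomucoid copies did not pass: Orm1, the main one at 137079 normalised counts, had -0.17 ± 0.14 and Orm2 (2814) had 0.52 ± 0.18 in the authors' deposited table (DESeq2 adjusted p = 0.777 and 0.125). Apoa1 had the third smallest p, with -0.35 ± 0.11 and an adjusted p of 0.0520 by DESeq2 in the authors' deposited table. After it came C3 (0.39 ± 0.14, adjusted p = 0.115 by DESeq2), Orm2 and then Ttr (-0.40 ± 0.15, adjusted p = 0.171) in the authors' deposited table. Re-centring the log2 fold changes on the median of genes at a mean level of 100 or more brought Apoa1 past the threshold as well, for 3 genes in all. Adjusted over the 5 organs together, Orm3 did not pass (adjusted p = 0.0965).

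Acute phase genes of the liver did not move in 1 direction. Serum amyloid A transports lipid in inflammation; Saa1, at 9787 normalised counts, had 0.01 ± 0.53, Saa2 (3592) had -0.29 ± 0.23 and Saa3 (741) had 0.64 ± 0.66 in the authors' deposited table. In the authors' deposited table Hp (haemoglobin binding) and Hpx (haem binding) had 0.18 ± 0.23 and 0.08 ± 0.15. The fibrinogen chain genes Fga, Fgb and Fgg had 0.11 ± 0.16, 0.19 ± 0.14 and 0.15 ± 0.12 in the authors' deposited table. Serpina1e, 1 of the alpha-1-antitrypsin copies, had the widest error of the 41 genes, -1.36 ± 0.68 at 1186356 normalised counts, while Serpina1a, Serpina1b and Serpina1c lay between -0.10 and -0.08 in the authors' deposited table. Serpina6, which encodes the corticosteroid-binding globulin, had 0.47 ± 0.24 in the authors' deposited table (DESeq2 adjusted p = 0.464). Of 20 other acute phase genes in the lists, 1 of 16 with an adjusted p rose, the hepatokine gene Fgl1 (0.90 ± 0.17 in the authors' deposited table). By the authors' adjusted p from DESeq2, 0 of 28 signalling genes of interleukin 6 and interleukin 1 rose or fell in liver, and 0 of 16 hepatocyte transcription factor genes; Hnf4a had 0.24 ± 0.13 and Cebpa -0.32 ± 0.17 in the authors' deposited table.

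By role, the liver medians were -0.00 for 8 carriers, -0.10 for 7 serpins, -0.11 for 6 apolipoproteins, 0.02 for 7 clotting and kinin genes, 0.00 for the heavy chains with fetuin and 0.20 for 8 acute phase and complement genes. The carriers Gc, Rbp4 and Ambp lay at -0.01 ± 0.12, 0.01 ± 0.14 and -0.04 ± 0.11 in the authors' deposited table. The apolipoprotein genes Apoa2 (-0.12 ± 0.14), Apoc1 (-0.00 ± 0.13), Apoc3 (an inhibitor of triglyceride clearance, -0.22 ± 0.19) and Apoh (-0.09 ± 0.13) did not pass in the authors' deposited table. Apoa1, with its adjusted p just above the threshold, had the lowest log2 fold change of the 6 apolipoproteins. Prothrombin (F2, -0.15 ± 0.12), kininogen (Kng1, 0.02 ± 0.13), Plg (0.01 ± 0.15) and the adhesion protein gene Vtn (0.02 ± 0.12) did not pass in the authors' deposited table. Nor did Itih1 (-0.08 ± 0.14), Itih3 (0.00 ± 0.14), Itih4 (0.12 ± 0.11), Ahsg (-0.06 ± 0.14), antithrombin (Serpinc1, -0.12 ± 0.11) and Serpina3n, a relative of antichymotrypsin (-0.13 ± 0.15), in the authors' deposited table.

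Beside these values, macrophage markers in liver lay above 0 for 13 of 13 genes, with a median of 0.48, and Vsig4 (0.65 ± 0.16) and Cd163 (0.68 ± 0.17) rose in the authors' deposited table. The neutrophil genes S100a8 and S100a9 rose as well (0.99 ± 0.24 and 0.88 ± 0.23 in the authors' deposited table). Of 14 exocrine pancreas markers 14 lay above 0, with a median of 5.86 and none past the threshold. Of 27 hepatocyte enzymes kept in the cell 23 lay below 0 and 4 above, with a median of -0.14. Among them Arg1 and Bhmt fell (-0.39 ± 0.12 and -0.64 ± 0.20 in the authors' deposited table). Among other plasma protein genes the complement protease gene Cfd, which adipocytes also express, fell and the tocopherol carrier gene Ttpa rose (-2.52 ± 0.53 and 0.44 ± 0.13 in the authors' deposited table). Of the adipocyte markers 4 fell, and Cfd is 1 of these 4. The part of any of these in the values of Il1rn or Orm3 was not tested. In whole organs fewer cells of a type and less RNA per cell cannot be told apart.

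**Figure D2:**
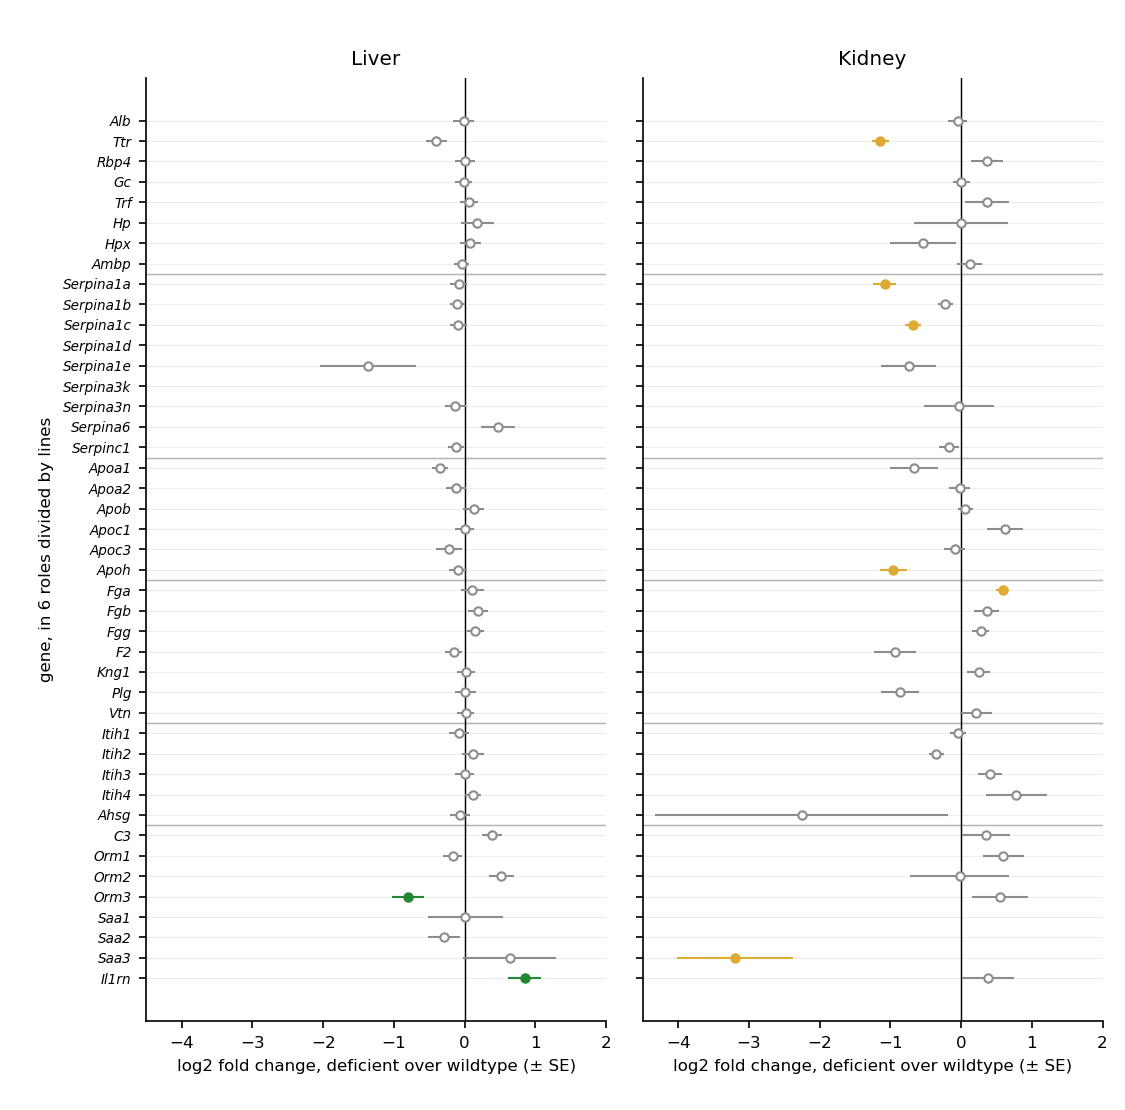
Log2 fold change (Ftsj1_DF over wildtype, ± SE) of each gene at a mean level of 10 or more in liver (41 genes) and kidney (38 genes), with filled points for genes past the authors' adjusted p of 0.05. Most liver points lie close to 0. Those furthest from it are Serpina1e, Il1rn, Orm3, Saa3, Orm2 and Serpina6, with the widest errors for Serpina1e and Saa3. In kidney Ttr, Serpina1a, Serpina1c, Apoh and Saa3 lie below 0 and Fga above, all filled.

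Of the 5 organs, kidney had the largest number of plasma protein genes past the threshold. Ttr, Serpina1a, Serpina1c, Apoh and Saa3 fell, Fga rose, and 32 of 38 genes with an adjusted p did not pass. The 6 genes are 15.8% of those with an adjusted p, against 0.987% of all genes tested in kidney, and the 5 that fell are 13.2%, against 0.648%. Serpina1a and Serpina1c share sequence, so their calls are not independent, and most of the level of Saa3 came from a pair of libraries (given below). The median over 38 genes was -0.02 and over all genes 0.0051.

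Kidney Ttr, at 12068 normalised counts, had a log2 fold change of -1.14 ± 0.12 in the authors' deposited table (DESeq2 adjusted p = 1.45e-16), or 45.3% of wildtype. Serpina1a (4068 normalised counts) had -1.08 ± 0.16 and Serpina1c (4808) had -0.68 ± 0.11 in the authors' deposited table (DESeq2 adjusted p = 1.26e-08 and 9.58e-08). Both encode alpha-1-antitrypsin, the inhibitor of neutrophil elastase, and their levels were 47.2% and 62.5% of wildtype. The other measured copies did not pass: Serpina1b (2773) had -0.22 ± 0.10 and Serpina1e (162) had -0.74 ± 0.39 in the authors' deposited table (DESeq2 adjusted p = 0.714 and 0.919). Apoh, which encodes the phospholipid-binding beta-2-glycoprotein I, had 1383 normalised counts and -0.96 ± 0.19 in the authors' deposited table (DESeq2 adjusted p = 0.000269). The 3 carriers most abundant beside Ttr did not pass, with Gc at 0.00 ± 0.12, Trf at 0.37 ± 0.31 and Alb at -0.05 ± 0.13 in the authors' deposited table.

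Because Serpina1a and Serpina1c moved and Serpina1b did not pass, stretches of their promoters are shown from RefSeq (build GRCm38.p6, chromosome 12, minus strand). Windows of 250 bases before the start were read for 33 of the 43 genes that the reference table holds. In the lines below capitals mark the letters TTGCNNAA of a C/EBP motif, or the same place in the copies where the last letter differs.
Serpina1a: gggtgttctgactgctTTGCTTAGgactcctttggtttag
Serpina1c: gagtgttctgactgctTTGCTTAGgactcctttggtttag
Serpina1b: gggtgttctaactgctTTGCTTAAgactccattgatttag
Serpina1d: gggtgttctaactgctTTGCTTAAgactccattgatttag
Serpina1e: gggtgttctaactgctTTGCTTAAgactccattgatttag
The stretches lie at chr12:103863750-103863789, chr12:103905087-103905126, chr12:103738327-103738366, chr12:103773759-103773798 and chr12:103957085-103957124, in that order. Counted from 1 at the first capital of Serpina1b, the change A8G is present in Serpina1a and Serpina1c and absent from Serpina1d and Serpina1e. Over the whole stretch Serpina1a and Serpina1c differ from Serpina1b at 4 and 5 bases. Serpina1e, without A8G, had -0.74 ± 0.39 in kidney in the authors' deposited table, beside -0.68 ± 0.11 for Serpina1c, and Serpina1d was listed at 0. A part of these letters in the kidney changes was not tested. Nearer the start all 5 copies have the same 36 bases, shown for Serpina1a (chr12:103863627-103863662), with the HNF1-type letters GTTAAT in capitals.
Serpina1a, near the start: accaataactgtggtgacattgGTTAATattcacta
On either strand TTGCNNAA was found in 18 of 33 genes (54.5%), against 10.8% of the 27025 genes in the table, and GTTAAT in 11 (33.3%) against 7.49%. The motifs do not overlap in these stretches. Copies of a family share sequence by descent, so the counts over genes are not independent, and a match is a description of letters.

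Fga, which encodes the alpha chain of fibrinogen, had 7807 normalised counts in kidney and a log2 fold change of 0.59 ± 0.092 in the authors' deposited table (DESeq2 adjusted p = 7.18e-08), or 151% of wildtype. The other chains lay on the same side of 0 without passing, Fgb (645 normalised counts) at 0.36 ± 0.18 and Fgg (2286) at 0.28 ± 0.12 in the authors' deposited table (DESeq2 adjusted p = 0.817 and 0.583). Per kilobase the 3 chains stood at 3018, 169 and 1349 normalised counts in kidney, against 433936, 316143 and 386380 in liver. On this scale Fga was well above Fgb in kidney, whereas the chains were close together in liver. The promoters of Fga and Fgb are shown for the letters TTCNNNGAA of a STAT motif, found in 3 of 33 genes (9.09%) against 8.13% of all genes. Fgg had no match in its window. A part of these letters in the rise of Fga was not tested. The places are chr3:83025903-83025943 on the plus strand for Fga and chr3:83050001-83050041 on the minus strand for Fgb.
Fga: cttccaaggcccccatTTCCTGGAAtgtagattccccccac
Fgb: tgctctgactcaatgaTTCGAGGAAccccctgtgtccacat

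Saa3, an inducible serum amyloid A copy of macrophages and fat, was low in kidney, with a mean of 26.0 normalised counts and -3.19 ± 0.82 in the authors' deposited table (DESeq2 adjusted p = 0.0158). For most genes at a mean level of 60 or less the whole reads of each library could be recovered, since the mean is a sum of whole reads over 6 size factors. Libraries are numbered here from 1 to 6 by falling size factor within an organ, and which mouse or genotype a library came from is not given by the table. The deposited fold changes bear on the genotype of a library, but no library was assigned to a genotype here. Saa3 normalised counts were 10.6, 5.95, 45.2, 2.49, 84.0 and 7.47 in kidney libraries 1 to 6. Libraries 3 and 5 were high and the other 4 low, so that most of its level came from a pair of libraries, and a value without them could not be computed. Ahsg, the fetuin gene, was at 8.93, 7.27, 175, 2.49, 0 and 29.9, with library 3 far above the rest, and Hpx at 44.7, 49.6, 114, 38.6, 35.8 and 44.8. Of the 7 plasma protein genes with recovered reads in kidney, 2 were highest in library 3 (Ahsg and Hpx), 1 in library 4, 2 in library 5 and 2 in library 6. Enzymes of hepatocytes were highest in library 3 in 9 of 13 genes with recovered reads, such as Cps1 (36.1, 14.5, 103, 15.0, 17.1 and 59.7). So were 4 of 4 macrophage markers with recovered reads, out of 13 listed, though Clec4f had only 13 reads in all. Whether tissue of another kind in library 3 had a part in the kidney values was not tested; levels of Ttr, Serpina1a, Serpina1c, Apoh and Fga were too high for reads to be recovered.

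Among the other kidney genes, Plg (plasminogen, -0.86 ± 0.27), Itih2 (-0.35 ± 0.11) and F2 (prothrombin, -0.93 ± 0.30) came closest to the threshold in the authors' deposited table (DESeq2 adjusted p = 0.0986, 0.0867 and 0.144). The other apolipoproteins of kidney lay on both sides of 0 without passing, Apob at 0.06 ± 0.11, Apoa2 at -0.02 ± 0.15, Apoc3 at -0.09 ± 0.15, Apoc1 at 0.62 ± 0.25 and Apoa1 at -0.67 ± 0.34 in the authors' deposited table. Among acute phase genes C3 (0.35 ± 0.34), Orm1 (0.60 ± 0.29), Orm3 (0.55 ± 0.40) and Il1rn (0.38 ± 0.37) were above 0, opposite to Saa3, and none of the 4 passed in the authors' deposited table. The heavy chain genes Itih1 (-0.04 ± 0.11), Itih3 (0.41 ± 0.17) and Itih4 (0.78 ± 0.43) did not pass in the authors' deposited table. By role, kidney medians ran from -0.45 for 6 serpins to 0.36 for 6 acute phase and complement genes.

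Outside the 43 genes, other secreted plasma proteins fell in kidney too: the protease inhibitor gene Pzp (-1.08 ± 0.13), the pentraxin gene Apcs (-1.05 ± 0.28), Hrg (histidine-rich glycoprotein, -0.88 ± 0.16), the complement gene C4b (-0.64 ± 0.13) and Azgp1 (-0.52 ± 0.12) in the authors' deposited table. These are 2 of 18 other acute phase genes with an adjusted p, 1 of 20 clotting, 1 of 22 complement and 1 of 18 carrier genes, and none of these lists held a gene that rose. Among proximal tubule markers Slc13a3 fell and Gatm rose (-0.48 ± 0.079 and 0.46 ± 0.10 in the authors' deposited table), and 13 did not pass. Of 14 kidney injury markers Fga itself and Spp1 (osteopontin, 0.44 ± 0.12 in the authors' deposited table) rose. S100a8 and S100a9 rose (1.24 ± 0.35 and 1.17 ± 0.31 in the authors' deposited table). Exocrine pancreas markers lay above 0 in 14 of 14 genes, with a median of 8.05, and the part of any such tissue was not tested.

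In heart most fitted log2 fold changes of plasma protein genes were below 0, with wide errors, and few passed the test. Of 37 genes at a mean level of 10 or more, 34 lay below 0, with a median log2 fold change of -2.48, against 50.3% below 0 and a median of -0.0019 over all genes. Itih2 and Orm1 fell and 36 of 38 genes with an adjusted p did not pass; that is 5.26%, against 0.541% of all genes in heart, or 0.331% for falls. At an unadjusted p under 0.05 there were 14 of 41 (34.1%), against 5.71% of all genes. Itih2, a heavy chain that is carried on hyaluronan, had 193 normalised counts and -1.24 ± 0.25 in the authors' deposited table (DESeq2 adjusted p = 0.000893). Orm1 had 57.1 normalised counts and -2.83 ± 0.77 in the authors' deposited table (DESeq2 adjusted p = 0.0438). Rbp4, which carries retinol, had the third smallest p with -1.32 ± 0.41 (218 normalised counts, adjusted p = 0.134 by DESeq2 in the authors' deposited table).

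The genes furthest below 0 were those whose heart share was a small and similar fraction of their liver share. Alb had 100 ppm of its liver share in heart, and 21 other genes at a mean level of 10 or more lay within 3 times that ratio, a limit chosen after the values were seen. They include Fga, Fgb, Fgg, Plg, F2, Kng1, Serpinc1, Gc, Apob and Apoc3, and their log2 fold changes ran from -4.64 to -2.12, with a median of -3.11 and a median SE of 1.93. None of them passed the threshold. Alb itself had -2.84 ± 2.53 in the authors' deposited table. By role, heart medians were -3.26 for serpins, -3.23 for clotting and kinin genes, -2.61 for apolipoproteins and -2.24 for carriers, against -0.84 for the heavy chains with fetuin and -0.35 for acute phase and complement genes. Single values included Ttr (-2.12 ± 0.76), Apoc1 (-1.48 ± 0.63), Ahsg (-0.66 ± 0.23) and Itih4 (-0.50 ± 0.75), with DESeq2 adjusted p from 0.244 to 0.959 in the authors' deposited table. The 6 genes more than 100 times above the ratio of Alb (Serpina3n, Vtn, C3, Orm3, Saa3 and Il1rn) had a median of 0.02 and lay between -0.76 and 0.71. C3 had -0.35 ± 0.26, Trf -0.34 ± 0.26, Vtn 0.09 ± 0.14, Serpina3n -0.05 ± 0.21 and Hp -1.90 ± 0.84 in the authors' deposited table, none past the threshold.

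**Figure D3:**
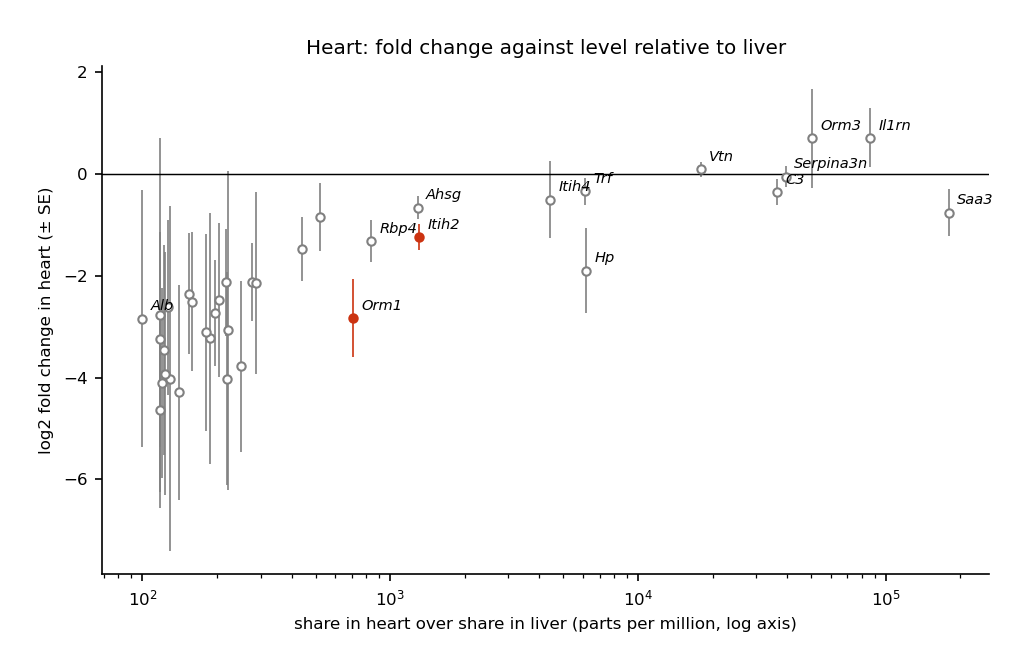
Log2 fold change in heart (± SE) against the share of each gene in heart over its share in liver (ppm, log axis), for 37 genes at a mean level of 10 or more, with Itih2 and Orm1, which passed, filled. Genes near the ratio of Alb lie far below 0 with wide errors, and genes with a high heart share, such as C3 and Vtn, lie near 0.

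Reads could be recovered for 19 of these genes in heart, and 2 libraries stood apart. Summed over the 19 genes, normalised counts were 1407, 1600, 400, 134, 158 and 165 in libraries 1 to 6. For 13 of 19 genes libraries 1 and 2 were the highest pair. The gamma chain gene Fgg was at 98.7, 139, 34.5, 0, 0 and 0, and plasminogen (Plg) at 114, 122, 13.1, 0, 2.08 and 0. A count of 0 allows up to 3 reads, which is a level of up to 4.07 in library 4, 6.24 in library 5 and 6.52 in library 6, counting error only. Orm1 was at 109, 146, 18.7, 46.1, 22.8 and 0, so that library 4 also held some. Orm3, in contrast, was at 19.4, 19.6, 3.73, 9.49, 16.6 and 60.8, and Il1rn at 29.2, 21.4, 47.6, 35.3, 22.8 and 69.5, both highest in library 6. Itih3 was spread over all 6 libraries at 101, 66.9, 40.1, 16.3, 29.1 and 34.7.

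Enzymes that hepatocytes keep in the cell followed the same libraries in heart. For 13 of 15 genes with recovered reads libraries 1 and 2 were the highest pair, and the sums were 807, 1086, 246, 133, 243 and 137. The betaine methyltransferase gene Bhmt was at 132, 145, 4.66, 2.71, 4.15 and 0, and the bile acid and drug uptake transporter gene Slco1b2 at 47.1, 141, 0.933, 2.71, 2.08 and 2.17. Of 26 such enzymes at a mean level of 10 or more 26 lay below 0, with a median of -1.50, and in the authors' deposited table Bhmt and Slco1b2 fell (-4.89 ± 1.18 and -5.31 ± 1.33). The adipocyte gene Lep fell (-4.92 ± 0.85 in the authors' deposited table), 9 of 10 adipocyte markers lay below 0, and lung markers with recovered reads summed to 446, 34.8, 39.2, 28.4, 49.8 and 17.3. The part of other tissue in libraries 1 and 2 in the fall of Itih2 and Orm1 was not tested, and values without these libraries could not be computed, since the fold changes cannot be refitted. Fitted folds of genes near 0 in most libraries are no bounds. Orm1 did not pass when adjusted over every gene with a p (0.0660) or over the 5 organs together (0.0580).

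**Figure D4:**
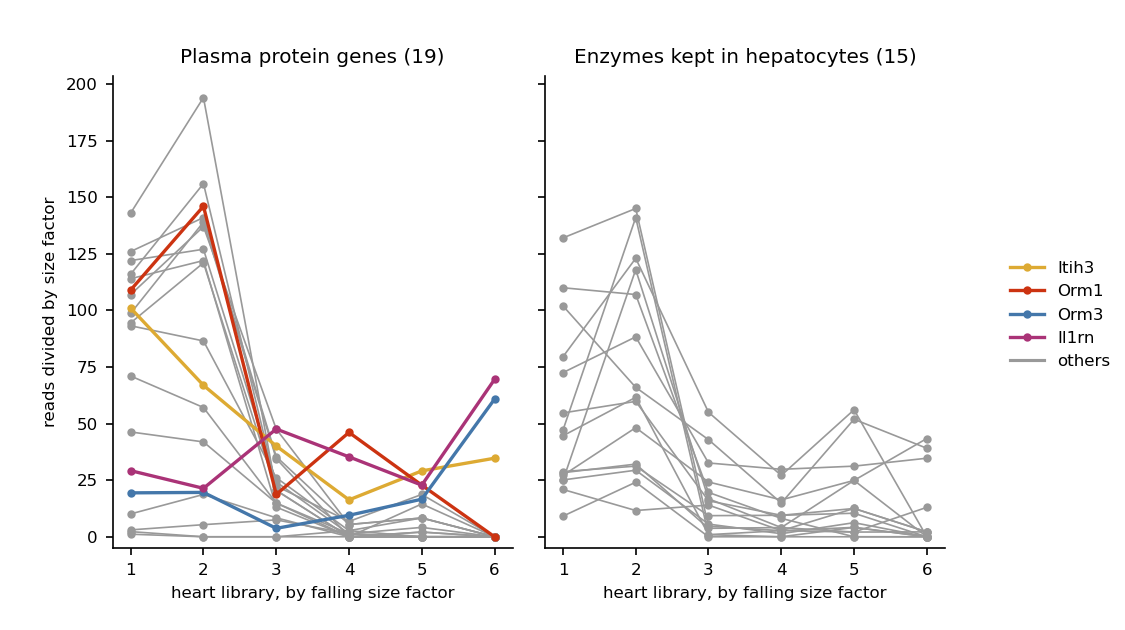
Normalised counts (reads divided by size factor) in the 6 heart libraries, ordered by falling size factor, for 19 plasma protein genes and 15 hepatocyte enzymes with recovered reads, 1 line per gene. Most genes are high in libraries 1 and 2, lower in 3 and near 0 in 4 to 6; Orm3 and Il1rn are highest in library 6.

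Other plasma protein genes that fell in heart were Pon1 (paraoxonase, -2.84 ± 0.77), Igfbp2 (-2.82 ± 0.69) and Masp1, a protease of the lectin pathway (-0.83 ± 0.16), in the authors' deposited table. Neutrophil genes rose there, with Cxcr2 at 2.27 ± 0.35 and S100a9 at 2.26 ± 0.37 in the authors' deposited table.

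In brain and spleen no plasma protein gene rose or fell. In brain 20 genes had an adjusted p and 0 passed, with 0.0607% of all genes past the threshold, and by the unadjusted p of DESeq2 3 of 41 (7.32%) were under 0.05, against 2.34% of all genes. These were Orm2 (3.18 ± 1.28 at 30.9 normalised counts), Hpx (1.03 ± 0.43 at 59.0) and Ambp (the alpha-1-microglobulin precursor, 2.54 ± 1.18 at 14.1) in the authors' deposited table, with an adjusted p of 1.000 for Hpx and Orm2 and none for Ambp. Orm2 was at 15.1, 6.16, 2.40, 0, 149 and 12.8 in brain libraries 1 to 6, so that library 5 held most of it. Ambp was at 2.78, 4.11, 5.60, 3.99, 60.2 and 7.70, again with library 5 alone high, and Itih4 at 22.6, 27.2, 8.01, 0, 90.2 and 12.8. Library 5 was the highest in 8 of 27 genes with recovered reads and in 5 of 14 hepatocyte enzymes. The abundant genes of brain had small errors: Trf -0.05 ± 0.14, Vtn -0.06 ± 0.13, Itih3 -0.08 ± 0.085 and Serpina3n 0.11 ± 0.12 in the authors' deposited table. Rbp4 (1590 normalised counts, -0.21 ± 0.12), Itih2 (1200, -0.23 ± 0.15) and C3 (318, 0.25 ± 0.26) came next in level in the authors' deposited table, while Alb was at 16.3. The median over 27 genes in brain was -0.04, and over all genes 0.0021.

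In spleen 30 genes had an adjusted p and 0 passed, with 0.0741% of all genes past the threshold, and 7 of 41 (17.1%) had an unadjusted p of DESeq2 under 0.05, against 4.70% of all genes. In liver and kidney the same unadjusted counts were 7 of 41 (17.1%, against 6.63%) and 15 of 41 (36.6%, against 3.99%). Hp (1.17 ± 0.37), Apoc1 (a small apolipoprotein, 0.73 ± 0.25) and Alb (-1.79 ± 0.68) had the smallest p in spleen by the authors' deposited table (DESeq2 adjusted p = 0.279, 0.377 and 0.520). Alb was at 16.1, 31.8, 18.8, 21.5, 63.1 and 146 in spleen libraries 1 to 6, with library 6 highest. Il1rn, at 1195 normalised counts, had 0.47 ± 0.18 in the authors' deposited table (DESeq2 adjusted p = 0.520). C3 had -0.25 ± 0.14, Trf 0.32 ± 0.36 and Serpina3n 0.06 ± 0.28 in the authors' deposited table. Relative to liver, spleen held more Il1rn (9.34 ppm against 3.08 ppm). Orm2 (254 normalised counts, -0.18 ± 0.26), Orm3 (162, -0.10 ± 0.36) and Saa3 (122, 1.03 ± 0.77) had small or uncertain changes in the authors' deposited table. The median over 28 genes in spleen was 0.12, and over all genes 0.0193. Neutrophil markers in spleen lay above 0 in 13 of 13 genes and macrophage markers in 12 of 12, with none past the threshold, and their part in the values of Il1rn and Hp, which such cells also express, was not tested.

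Differences in the change between organs were tested with Cochran's Q over the organs where a gene had a mean level of 10 or more. By this test 5 of 40 genes passed (12.5%), against 1.22% of 23049 genes: Serpina1a, Serpina1c, Itih2, Orm1 and Saa3. The test treats organs as independent although the same mice gave all 5. Serpina1a and Serpina1c share sequence and are not independent of each other. Serpina1a stood at -1.08 ± 0.16 in kidney and -0.08 ± 0.12 in liver in the authors' deposited table, and the difference of kidney from liver was -1.0 ± 0.20 (z test adjusted p = 0.000456 over all genes and organ pairs). Itih2 in heart differed from liver by -1.36 ± 0.29 (adjusted p = 0.00237), kidney Ttr by -0.74 ± 0.20 (adjusted p = 0.0372) and kidney Apoh by -0.87 ± 0.23 (adjusted p = 0.0469), all by the z test. In all 4 of 130 such pairs passed (3.08%), against 0.485% of 74088. Ttr did not pass over all organs by Cochran's Q (adjusted p = 0.0555), and for kidney Fga the difference from liver was 0.49 ± 0.19 (adjusted p = 0.392 by the z test), so a change of Fga that differs between these organs was not shown. Serpina1c (-0.59 ± 0.16, adjusted p = 0.0523 by the z test) narrowly missed against liver.

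Promoters of the called liver genes are shown for letters of C/EBP and NF-kB motifs. Whether these places have a part in the changes was not tested. Orm3, which fell, and Orm2, which did not pass, both hold TTGCNNAA letters on chromosome 4, plus strand (chr4:63356021-63356060 and chr4:63362313-63362352). Counted from 1 at the first capital of Orm2, they differ there by G5A.
Orm2: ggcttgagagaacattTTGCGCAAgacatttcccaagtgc
Orm3: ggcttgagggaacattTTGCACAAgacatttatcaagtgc
Il1rn, which rose, holds NF-kB letters (GGG, any 2 bases, then TTTCC, in capitals) at chr2:24345304-24345345 on the plus strand. They were found on either strand in 2 of 33 genes (6.06%) and in 1.65% of all genes.
Il1rn: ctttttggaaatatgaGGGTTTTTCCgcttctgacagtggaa
The TATAAA letters were found in 6 of 33 genes (18.2%) against 14.3% of all genes, and CAAAGTCCA, for HNF4, in 0 of 33 against 0.451%. No match says only that these letters are not in the window.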

How the data were processed

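The deposited poly-A tables hold, per the file headers, the authors' DESeq2 results per organ: the mean signal (normalised counts), log2 fold change with its SE, the Wald score, the p-value and the adjusted p-value. Per the submitters' processing notes the build was GRCm39 and the tools featureCounts, Subread 2.0.3 and DESeq2; the sources used here give no aligner, annotation or strand setting. Stranded mRNA kits were used, per the labels' protocols. The sources tie replicates to separate mice.

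No model was fitted, since the tables hold no value per library; calls are the authors' adjusted p under 0.05 (Benjamini-Hochberg). Members and lists were chosen with earlier results of these data known. Named genes are those called, the 3 smallest p where fewer than 3 were called, the 5 highest levels per organ, and called genes of 17 other lists, at most 4 per list and organ; some of the last are given by count alone. Computed here with Python 3.11.15, pandas 2.3.3 and scipy 1.17.1: shares, medians at a mean level of 10 or more, Cochran's Q, z tests, and reads per library. Size factors were read from genes with 1 read in 1 library; whole reads had to give the deposited mean within a relative 4e-15. Of 400 genes tried per organ at mean levels of 1 to 12, 96.5% to 98.2% had exactly 1 solution. Of the same values slightly shifted none had any. In simulated reads at levels of 30 to 60 every single solution was right, but shifted values had a chance solution in up to 2 of 10 (kidney). Transcript lengths and promoter windows came from GENCODE M21 and RefSeq GRCm38.p6. The entry without a name (at most 0.000198% of a total) and the tables of other RNA kinds were not used here.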

Additional observations from a re-analysis of the deposited data

Results flagged for a closer look

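For 5 genes the change differed between organs by Cochran's Q, with Benjamini-Hochberg adjustment over 23049 genes: Serpina1a (adjusted p = 0.00115), Orm1 (0.0180), Itih2 (0.0183), Serpina1c (0.0402) and Saa3 (0.0411). Serpina1a and Serpina1c were lowest in heart, with wide errors (-4.02 ± 3.39 and -4.11 ± 1.87), in the authors' deposited table. In kidney they had -1.08 ± 0.16 and -0.68 ± 0.11, against -0.08 ± 0.12 and -0.09 ± 0.12 in liver, in the authors' deposited table. Itih2 had -1.24 ± 0.25 in heart, -0.35 ± 0.11 in kidney, -0.23 ± 0.15 in brain, 0.12 ± 0.15 in liver and 0.25 ± 1.33 in spleen in the authors' deposited table. Orm1 had -2.83 ± 0.77 in heart and -0.17 ± 0.14 in liver, with 0.60 ± 0.29 in kidney and 0.39 ± 0.37 in spleen in the authors' deposited table. Saa3 had -3.19 ± 0.82 in kidney, -0.76 ± 0.46 in heart, 0.64 ± 0.66 in liver and 1.03 ± 0.77 in spleen in the authors' deposited table. The same mice gave all organs, which the test does not take into account, and which library is which mouse is not given by the tables.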

How the results depend on the processing

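No paired analysis was possible because the tables hold no value per library; a block for litter and leaving out a mouse were not run for the same reason. With a t distribution of 4 degrees of freedom 0 of the plasma protein genes passed in heart, kidney and liver, but neither did any of all genes tested in any organ, Ftsj1 included (0 of 23313 in kidney), so that this setting could not have kept a call and says nothing about these genes. Adjusted over every gene with a p 1 passed in heart (Itih2), and over the 5 organs together 1 in heart (Itih2) and 1 in liver (Il1rn). Re-centring on the median of genes at a mean level of 100 or more added Apoa1 in liver, for 3 genes there. The other counts were within 1.5 times. The direction of each called gene was the same in every setting run, but it could hardly have differed. Only re-centring altered the log2 fold changes, and by little. With organs at a mean level of 100 or more, 5 genes differed between organs, 3 of them as before (Serpina1a, Serpina1c and Itih2), with Ttr and Apoh in place of Orm1 and Saa3. The median in heart was between -2.48 and -1.69 and the median in spleen between -0.01 and 0.30 over the settings; re-centring shifted medians by at most 0.0360 (spleen). Without mitochondrially encoded genes in the total, the 43 genes made up 0.132% of brain, 0.0590% of heart, 0.0853% of kidney, 20.8% of liver and 0.124% of spleen. Depth limits low genes: the smallest size factor was 0.268 in kidney and 0.460 in heart.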

Other observations

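Apoc1 lay on the positive side in kidney and spleen (0.62 ± 0.25 and 0.73 ± 0.25) and on the negative side in heart (-1.48 ± 0.63) in the authors' deposited table, with none past the adjusted threshold. Itih4 had wide errors in each organ outside liver, from 0.43 in kidney to 1.09 in brain, while in liver its SE was 0.11. In spleen 4 Serpina1 copies had log2 fold changes between -0.82 and -0.50 in the authors' deposited table (Serpina1a, Serpina1b, Serpina1c and Serpina1e), none past the adjusted threshold; these copies share sequence.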
